A study of Mus musculus with 56 samples.

Results

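The genes described here are 10 genes that mark the sinusoidal endothelium of the liver or its capillarization, namely Stab1, Stab2, Lyve1, Clec4g, Fcgr2b, Oit3, Gpr182, Mrc1, Cd34 and Plvap. They were taken by symbol from a table of 21935 genes counted in whole liver, and 10 of the 10 were found and were kept by the filter of at least 5 reads in at least 3 mice, among 14105 genes in all. The livers came from 56 male C57BL/6J mice in 7 groups of 8. The mice were 5 to 6 weeks old on arrival and were fed chow or the AMLN diet, a high-fat food with added fructose and cholesterol that gives obesity with metabolic dysfunction-associated steatohepatitis (the DIO-MASH model), for 36 weeks. They then received once-daily subcutaneous dosing for 8 weeks. Chow mice received vehicle. DIO-MASH mice received vehicle, zalfermin at 0.05 mg/kg (low dose) or 0.2 mg/kg (high dose), semaglutide at 3 µg/kg (low dose) or 120 µg/kg (high dose), or both drugs (the combination), at their low doses by the study's methods and at the high doses by the deposited design text. Zalfermin mimics the hormone FGF21 with a prolonged action. Semaglutide activates the receptor of GLP-1, a gut hormone. All AMLN-fed mice had been selected by liver biopsy for steatosis and fibrosis, so the DIO-MASH groups hold no mouse without disease.

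Liver sinusoidal endothelial cells line the hepatic capillaries. In the healthy liver these cells have open fenestrae and no organized basement membrane, and they clear waste macromolecules from blood through a set of endocytic receptors. In fibrotic liver they can lose fenestrae and scavenger receptors, gain a basement membrane and take on features of ordinary capillary endothelium, which is called capillarization, and Cd34 and Plvap are commonly used as its markers. Stab1 and Stab2 encode the scavenger receptors stabilin-1 and stabilin-2, Lyve1 a hyaluronan receptor, Mrc1 the mannose receptor, Clec4g the lectin LSECtin and Fcgr2b an inhibitory receptor for immunoglobulin G. Gpr182 encodes an atypical chemokine receptor, Oit3 a secreted protein used as a sinusoidal marker, Cd34 a sialomucin of capillary endothelium and of other mesenchymal cells, and Plvap the protein of the diaphragms that span endothelial fenestrae and caveolae. Several are not exclusive to these cells, since Mrc1, Stab1 and Lyve1 are also expressed by macrophages and Fcgr2b by B cells and macrophages.

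All coordinates are those of GENCODE M21 on GRCm38. On chromosome 1 the annotation places Fcgr2b at chr1:170958617-170976547 on the minus strand and Cd34 at chr1:194938819-194961279 on the plus strand. Chromosome 8 holds Clec4g at chr8:3707064-3720651 and Plvap at chr8:71497765-71511752, both on the minus strand. On chromosome 10 are Oit3 at chr10:59422958-59441778, Stab2 at chr10:86841198-87008025 and Gpr182 at chr10:127747276-127751732, each on the minus strand. Mrc1 lies at chr2:14229392-14332057 on the plus strand, Lyve1 at chr7:110850607-110863239 and Stab1 at chr14:31139013-31168641, both on the minus strand. Exons of a gene on the other strand overlap those of Stab1 over 1.09% of its exonic bases (Nt5dc2) and Stab2 over 1.61% (Gm16268). The share is 1.87% for Gpr182 (Zbtb39), 2.03% for Cd34 (Gm16897) and 2.68% for Fcgr2b (Gm38204). The largest such share is 5.93%, for Clec4g (Gm16553). Use of strand in the counting was not stated, so reads in these short stretches could belong to either gene.

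Promoters of 300 bases, from 250 bases before to 50 after the RefSeq transcription start in GRCm38.p6, were given for 6 of the 10 genes (Cd34, Clec4g, Fcgr2b, Mrc1, Stab1 and Stab2). The sequences of Cd34 and Clec4g are shown because these genes had the largest differences in opposite directions between chow and DIO-MASH vehicle. Capitals mark matches on either strand to the short motifs CAGGAA or CCGGAA (ETS) and CCACCC (KLF), and each sequence is written 5' to 3' on its gene's strand.
Cd34 promoter, chr1:194938571-194938870, plus strand: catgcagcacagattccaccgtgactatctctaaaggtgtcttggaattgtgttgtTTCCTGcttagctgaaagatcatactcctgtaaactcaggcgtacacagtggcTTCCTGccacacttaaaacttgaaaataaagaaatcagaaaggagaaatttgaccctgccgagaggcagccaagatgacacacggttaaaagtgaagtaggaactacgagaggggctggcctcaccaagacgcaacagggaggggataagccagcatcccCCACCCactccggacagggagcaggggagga
Clec4g promoter, chr8:3720602-3720901, minus strand: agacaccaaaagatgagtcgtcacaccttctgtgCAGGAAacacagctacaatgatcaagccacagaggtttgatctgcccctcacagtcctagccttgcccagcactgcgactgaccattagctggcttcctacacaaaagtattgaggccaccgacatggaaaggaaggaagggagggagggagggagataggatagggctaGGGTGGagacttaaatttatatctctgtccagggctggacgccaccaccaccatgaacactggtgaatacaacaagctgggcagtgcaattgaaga
An ETS word was present in 5 of the 6 promoters and in 41.4% of 32851 mouse promoters of this length, and the KLF word in 4 of the 6 and in 31.5%. The Cd34 promoter held 2 ETS words and 1 KLF word, and the Clec4g promoter 1 of each. FOX words (TGTTTA) occurred in 1 of the 6 (Fcgr2b) and in 13.4% of all promoters. For the letters AGATAA and the letters TGATAA, which are among the words of the GATA factors, 0 of the 6 had a match, against 18.6% of all promoters. Other words of the GATA factors were not searched. SOX words (AACAAT) and AP-1 words (TGACTCA) also had 0 matches in the 6, against 10.7% and 5.2%. These are matches of letters in a short window and no binding was measured.

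Libraries held 5228187 to 20885786 counted reads (median 12206788). Values are given as CPM, the counts of a gene per 1000000 counted reads after a correction for library composition, each as the lowest, median and highest of the 8 mice or as mean ± SD with n = 8. Per kilobase of exon, the scale on which genes can be set beside each other, Plvap had the highest level of the 10 in DIO-MASH vehicle livers, at 38.2 ± 5.07 CPM per kb, followed by Clec4g at 12.8 ± 0.909. Cd34 had the lowest level, 1.91 ± 0.805 CPM per kb, and the others lay between 5.56 and 8.55. In chow livers Plvap (21.8 ± 4.48 CPM per kb) and Clec4g (17.7 ± 2.14) were closer together, and Cd34 stood at 0.291 ± 0.133. Cd34 was measured on 9 to 43 reads per chow library, so its chow value carries more counting error than that of any other member.

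Between chow and DIO-MASH vehicle, capillarization markers and 3 endocytic receptors were lower in chow and 1 lectin was higher. These groups differ in diet, obesity and disease together, whose parts cannot be told apart. In edgeR's quasi-likelihood test with Benjamini-Hochberg adjustment over all genes, 6 of the 10 passed an adjusted p of 0.05, 1 higher and 5 lower in chow, against 55.4% of all genes tested. The median log2 fold change (chow minus DIO-MASH vehicle) was -0.35 over the 10 genes and -0.0072 over all genes. The share called was therefore near the background of this comparison, and the sizes and directions of the single genes carry the description. Here and below, fewer cells of a type and less RNA per cell cannot be told apart in whole liver.

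Cd34 had the largest difference of the 10. Its CPM in chow livers had a lowest, median and highest value of 1.14, 1.92 and 4.41, against 6.33, 15.9 and 21.1 in DIO-MASH vehicle livers. The groups did not overlap, although the DIO-MASH vehicle mice spread widely, with 3 of them between 6.33 and 7.79 and 5 at 15.1 or above. The log2 fold change of Cd34 was -2.70 (SE 0.399, adjusted p = 1.25e-07), a ratio of 0.154. Label numbers of the mice fall into series, of which 4 hold mice of both groups (1 of them with 2 chow mice and 1 DIO-MASH vehicle mouse), and within these the log2 CPM difference of Cd34 ran from -3.42 to -1.67.

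Plvap differed by less but with a tighter spread. Chow livers had 31.6, 41.6 and 55.01 CPM (lowest, median, highest) and DIO-MASH vehicle livers 59.6, 75.0 and 91.4, so that every chow mouse lay below every DIO-MASH vehicle mouse. The log2 fold change of Plvap was -0.82 (SE 0.150, adjusted p = 8.65e-06), and within the label series -0.93 to -0.41.

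Clec4g, a lectin of sinusoidal cells, was the only one of the 10 called higher in chow. Its CPM was 34.5, 43.4 and 50.6 in chow and 26.6, 31.9 and 33.95 in DIO-MASH vehicle (lowest, median, highest), with no overlap between the groups. The log2 fold change of Clec4g was 0.47 (SE 0.117, adjusted p = 0.000648), and 0.27 to 0.61 within the label series. DIO-MASH vehicle livers therefore had 31.4 ± 2.24 CPM of this receptor where chow livers had 43.5 ± 5.27.

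Lyve1, the hyaluronan receptor, was higher in the diseased livers. Chow mice had 2.37, 6.198 and 12.1 CPM and DIO-MASH vehicle mice 10.9, 16.4 and 20.2, with the 2 highest chow mice reaching into the DIO-MASH range. The log2 fold change of Lyve1 was -1.24 (SE 0.269, adjusted p = 0.000109), and -2.44 to -0.63 within the label series. Stab2 and Mrc1 passed the test with smaller differences, Stab2 at 48.4 ± 10.4 CPM in chow against 62.6 ± 10.04 (log2 fold change -0.37, SE 0.146, adjusted p = 0.0281) and Mrc1 at 37.6 ± 4.83 against 47.2 ± 6.09 (-0.32, SE 0.124, adjusted p = 0.0226). Both calls lay near the threshold and were lost in some of the fits that left out 1 mouse. Stab2 lost its call in 7 fits that each left out 1 mouse (chow replicate 2, 5 or 8, or DIO-MASH vehicle replicate 3, 4, 5 or 6), with adjusted p of up to 0.0651. Mrc1 lost it without chow replicate 8 (adjusted p = 0.0634) and without DIO-MASH vehicle replicate 3 (0.0695) or 5 (0.0533).

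For the remaining 4 genes no difference was called. Stab1 had 49.8 ± 10.6 CPM in chow and 65.3 ± 15.3 in DIO-MASH vehicle, with a log2 fold change of -0.39 (95% confidence interval -0.75 to -0.03) and an adjusted p of 0.0596, which moved under the threshold with the number series as covariate (log2 fold change -0.43, adjusted p = 0.0399), with only the 2 groups fitted (0.0374), with DESeq2 (0.0495) or without DIO-MASH vehicle replicate 1 (0.0188), chow replicate 1 (0.0358) or 6 (0.0389), or semaglutide low-dose replicate 6 (0.0492). Fcgr2b had 47.8 ± 10.2 and 45.8 ± 5.61 CPM (log2 fold change 0.06, interval -0.15 to 0.28). Oit3 had 26.5 ± 5.46 and 23.9 ± 3.89 CPM (0.15, interval -0.11 to 0.42), and Gpr182 34.8 ± 8.51 and 30.7 ± 4.29 CPM. Of the 8 receptors and sinusoidal markers other than Cd34 and Plvap, Clec4g was therefore the 1 called lower in DIO-MASH vehicle than in chow.

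**Figure D1:**
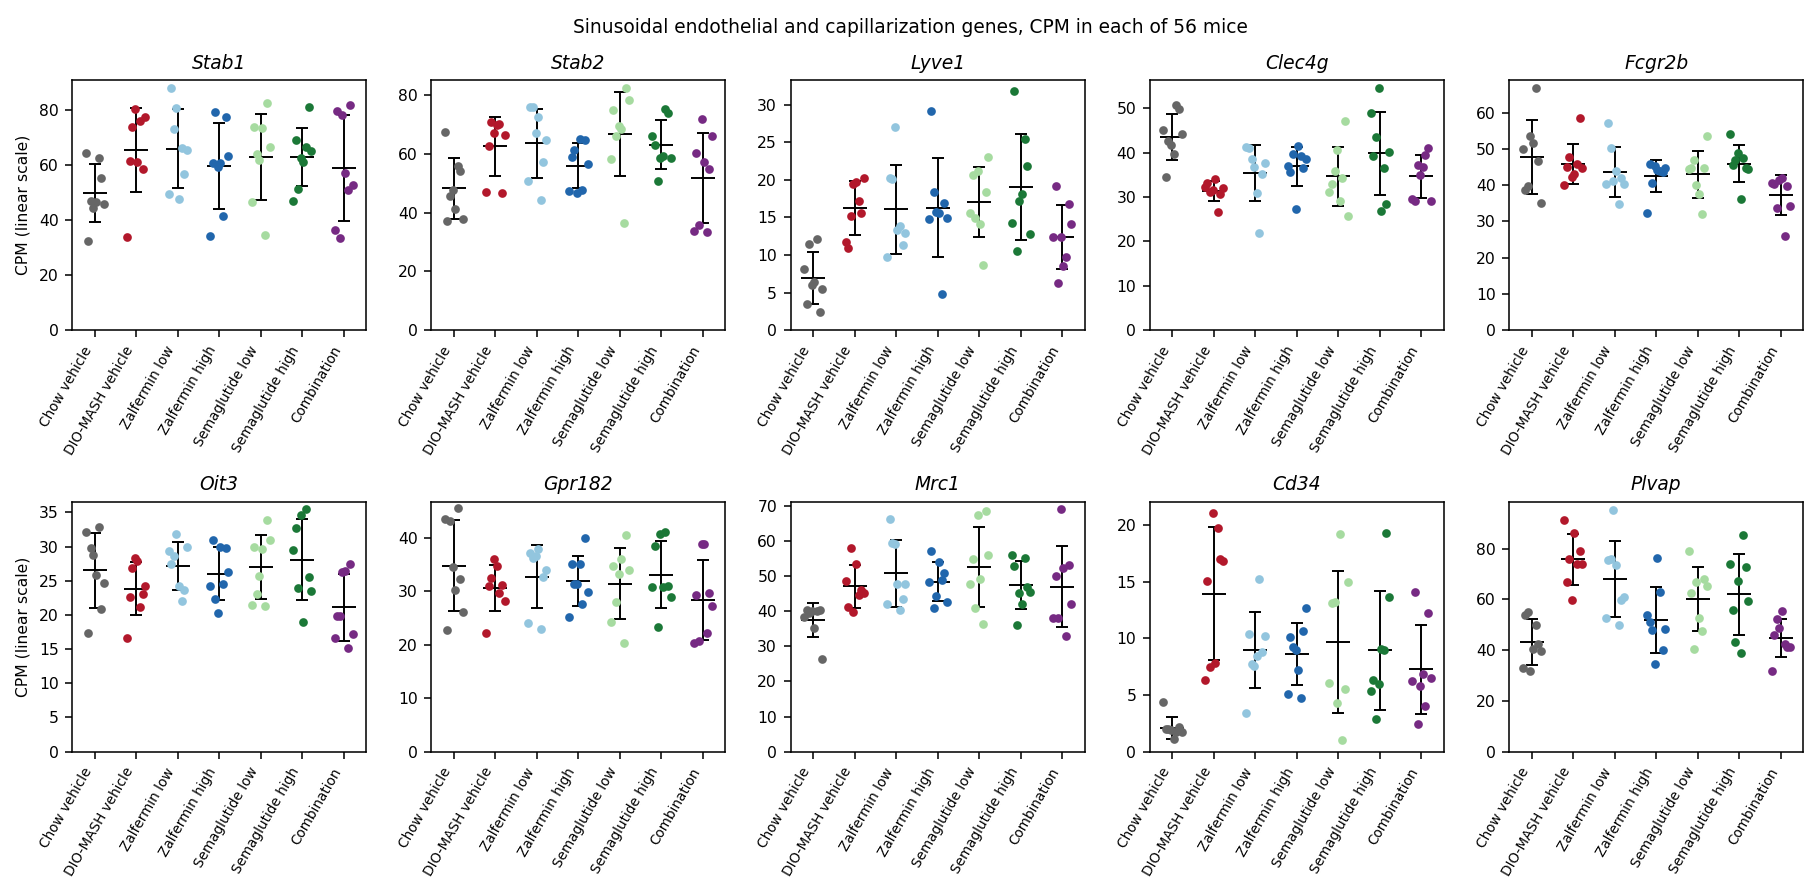
CPM of the 10 genes (linear axis from 0) in each of 56 livers, 8 points per group with the group mean and SD as black bars. Chow points of Plvap and Cd34 lie below and those of Clec4g above every DIO-MASH vehicle point, and the combination's Plvap points (31.8 to 55.3 CPM) cover nearly the same range as chow (31.6 to 55.01), with 1 point above it.

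CPM is a share of all reads, and other cell types moved in the same comparison, in which 55.4% of all genes were called. Of 8 hepatocyte genes 8 were higher in chow, with summed levels of 156000 to 244000 CPM against 68800 to 90700 in DIO-MASH vehicle. Of 12 stellate cell and fibroblast genes 0 were higher and 9 lower (summed 172 to 283 against 954 to 1580 CPM), of 10 monocyte-derived macrophage genes 0 and 9 (55.6 to 110 against 385 to 814 CPM), and of 6 B cell genes 0 and 6 (0.87 to 5.74 against 2.52 to 51.3 CPM). Kupffer cell genes were mixed, 3 higher and 6 lower of 12 (180 to 965 against 492 to 1030 CPM). Clec4f, a defining Kupffer cell gene, did not pass (log2 fold change 0.22, adjusted p = 0.57). Of 5 lymphatic endothelial genes tested, 1 was higher and 3 were lower (178 to 294 against 268 to 399 CPM), among them Reln, which the stellate cell list also holds, with Pdpn at 0.0288 CPM in chow and 0.411 in DIO-MASH vehicle. The part of these cells in the levels of Lyve1, Mrc1, Stab1, Fcgr2b and Cd34 was not tested.

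Genes that mark endothelial cells in general changed less than Cd34 or Plvap. Of 15 such genes 0 were higher and 6 lower in chow, a smaller share than the 55.4% of all genes called. Their median log2 fold change was -0.21, with summed levels of 275 to 443 against 313 to 477 CPM. They included Pecam1 (log2 fold change -0.50, adjusted p = 0.00326) and Cdh5 (-0.40, adjusted p = 0.0433), both of endothelial junctions, whereas Kdr, the main VEGF receptor, had 0.26 (adjusted p = 0.0565). Other sinusoidal genes split, with 5 higher and 5 lower of 15. Higher in chow were Fcna, Dnase1l3, a secreted nuclease, Ehd3, Bmp2 and Cd209b, and Fcna had a log2 fold change of 1.22 (adjusted p = 3.92e-05). Which cells of the whole liver gave the Fcna reads was not tested. Lower were Il1a, Flt4, the VEGF-C receptor (-0.93, adjusted p = 0.000925), Rapgef5, Ntn4 and the transcription factor Maf. Of 21 genes of other vessels and of the basement membrane, 0 were higher and 19 lower, with a median of -1.62 and summed levels of 164 to 250 against 476 to 816 CPM. Nid1, a basement membrane linker protein, had -2.55 (adjusted p = 2.87e-11), the collagen IV gene Col4a1 -2.31 (adjusted p = 1.64e-11) and Vwf, the von Willebrand factor, -0.58 (adjusted p = 0.0165). Collagen IV and Nid1 are also made by stellate cells.

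The remaining vascular lists split in the same comparison. Among 14 genes of the VEGF and angiopoietin pathways 1 was higher and 6 were lower in chow. Vegfa, the main angiogenic ligand, was the higher one (log2 fold change 0.52, adjusted p = 0.00111), and Angpt1 had the largest fall (-1.49, adjusted p = 0.00182). Of 15 endothelial transcription factors 1 was higher and 6 were lower. Klf4 was higher (1.20, adjusted p = 0.00869), Irf8 lower (-1.53, adjusted p = 3e-07), and Gata4, which specifies sinusoidal identity, had 0.03 (adjusted p = 0.883). Of 11 angiocrine factors 2 were higher and 5 lower, with Bmp6 at 0.63 (adjusted p = 0.00914) and Hgf at -1.84 (adjusted p = 9.86e-11).

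Each gene was then set against the mean log2 CPM of the 15 general endothelial genes in the same mouse, and compared between groups with an exact two-sided permutation test, adjusted over 60 tests. The smallest p that 8 against 8 mice allow is 0.00016. The endothelial mean itself was lower in chow than in DIO-MASH vehicle by a log2 difference of -0.21, which did not pass the test (p = 0.0637, exact permutation test). On this scale 4 of the 10 genes differed between chow and DIO-MASH vehicle. Only these 10 genes were tested in this way, so there is no share over all genes to set beside the count. On CPM, 55.4% of all genes were called in this comparison. Cd34 had a relative difference of -2.37 and Clec4g of 0.67, both with an adjusted p of 0.00466 and no overlap between groups. Lyve1 had -1.14 (adjusted p = 0.00622), and Gpr182, which was not called on CPM, had 0.37 (adjusted p = 0.0186). Plvap had -0.62 with an adjusted p of 0.0573, which passed without chow replicate 2 (0.00932) or DIO-MASH vehicle replicate 4 (0.0404). Oit3 had 0.35 with 0.0522, and passed without chow replicate 2 (0.0435) or 7 (0.0186) or DIO-MASH vehicle replicate 5 (0.0109). Stab1, Stab2 and Mrc1 had relative differences of -0.17, -0.17 and -0.12, none of which passed, although Stab1 did without DIO-MASH vehicle replicate 1 (-0.25, adjusted p = 0.04). Stab2 and Mrc1 were thus called on CPM and not relative to the endothelial genes. These values depended on the reference. Against the mean of Cdh5 and Pecam1 alone, which was lower in chow by a log2 difference of -0.46, Stab1, Stab2 and Mrc1 turned to 0.08, 0.08 and 0.13, and Fcgr2b (0.50 in place of 0.25) and Oit3 (0.60) passed, each with an adjusted p of 0.0202. Cd34, Clec4g, Lyve1 and Gpr182 passed with either reference.

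**Figure D2:**
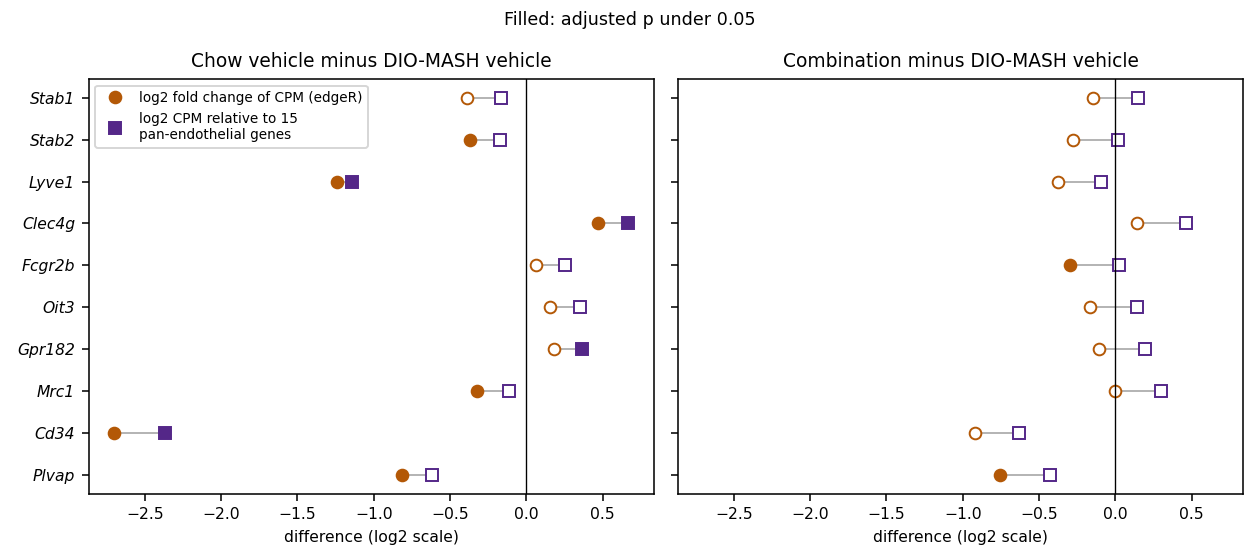
Difference between chow (left) or combination (right) and DIO-MASH vehicle for each gene on the log2 scale, as edgeR's fold change of CPM (circles) and relative to 15 general endothelial genes (squares), filled where the adjusted p was under 0.05. In chow, Cd34, Lyve1 and Clec4g are filled on both scales; with the combination, Plvap and Fcgr2b are filled as circles and 0 genes as squares.

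Treatment was compared with DIO-MASH vehicle to ask whether the drugs moved these genes back toward their chow levels. Plvap fell with high-dose zalfermin and with the combination, Fcgr2b with the combination, and no member rose. The fall of Fcgr2b was not a move toward chow. Its mean was 47.8 CPM in chow, 45.8 in DIO-MASH vehicle and 37.2 with the combination. High-dose zalfermin called 1 of the 10 genes (lower), against 17.2% of all genes, and the combination 2 (both lower), against 20.9%. Neither share was above that of all genes. The combination's median log2 fold change was -0.22 over the 10 genes and -0.0261 over all genes. High-dose semaglutide called 0 of 10, against 2.43% of all genes, low-dose zalfermin 0 of 10, against 0.468%, and low-dose semaglutide 0 of 10, against 0%. At an unadjusted p under 0.05 these 3 groups had 1, 0 and 1 of the 10 genes, and DESeq2 called 0 in each. The comparisons share the DIO-MASH vehicle mice.

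With high-dose zalfermin Plvap had 34.6, 49.7 and 76.5 CPM (lowest, median, highest), and with the combination 31.8, 44.2 and 55.3 CPM. The combination mice did not overlap the DIO-MASH vehicle mice (59.6 to 91.4 CPM), while the high-dose zalfermin mice did. Plvap fell with the combination at a log2 fold change of -0.76 (SE 0.149, adjusted p = 0.000171), a ratio of 0.591, and with high-dose zalfermin at -0.55 (SE 0.149, adjusted p = 0.00671). Both calls held in all 18 fits that left out 1 mouse, with fold changes of -0.81 to -0.69 and -0.65 to -0.48. Within the label series the log2 CPM difference of Plvap was -0.89 to -0.59 for the combination and -0.80 to -0.41 for high-dose zalfermin.

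In the other treated groups the mean of Plvap lay between those of high-dose zalfermin and DIO-MASH vehicle. Low-dose zalfermin mice had 49.8, 67.1 and 95.3 CPM, low-dose semaglutide mice 40.5, 63.8 and 78.9, and high-dose semaglutide mice 38.9, 63.3 and 85.4. By mean the order of the 7 groups was chow (43.2), combination (44.9), high-dose zalfermin (51.9), low-dose semaglutide (60.2), high-dose semaglutide (62.1), low-dose zalfermin (67.9) and DIO-MASH vehicle (75.9). Low-dose semaglutide had a log2 fold change of -0.33 against DIO-MASH vehicle, with a 95% confidence interval of -0.63 to -0.037 that left out 0 and an adjusted p of 0.519. High-dose semaglutide had -0.29 (interval -0.59 to 0.0061, adjusted p = 0.305) and low-dose zalfermin -0.16 (adjusted p = 0.714), and none of the 3 passed.

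Relative to the 15 endothelial genes, Plvap's difference was -0.43 with the combination (adjusted p = 0.0922, exact permutation test over 60 tests, passing without DIO-MASH vehicle replicate 4 or combination replicate 3) and -0.46 with high-dose zalfermin (adjusted p = 0.143). On that scale 0 of the 10 genes passed in any of the 5 treated groups. Clec4g came nearest, at 0.46 with the combination (adjusted p = 0.0544), and passed in 4 of 16 fits that left out 1 mouse. With high-dose zalfermin Clec4g had 0.34 (adjusted p = 0.0909) and Oit3 0.24 (adjusted p = 0.0932). Mrc1 had 0.30 with the combination (adjusted p = 0.0932). The endothelial mean was itself lower with the combination by a log2 difference of -0.33 (p = 0.0194, exact permutation test, adjusted p = 0.116 over 6 comparisons), with 0 of its 15 genes higher and 4 lower. Of all genes, 20.9% were called in this comparison. Esam (log2 fold change -0.64, adjusted p = 0.000278), Sox18 (-0.74, adjusted p = 0.00442), Tie1 (-0.59, adjusted p = 0.00618) and Pecam1 (-0.41, adjusted p = 0.0352) fell. Counts on this scale depended on single mice. Without DIO-MASH vehicle replicate 5 the count was 3 genes for high-dose zalfermin (Clec4g, Oit3 and Gpr182). For the combination it was also 3 (Clec4g, Gpr182 and Mrc1), and all of these were relatively higher than in DIO-MASH vehicle.

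Cd34 spread widely in the treated groups. With the combination it had 2.47, 6.38 and 14.1 CPM (lowest, median, highest), with high-dose zalfermin 4.74, 9.10 and 12.7 and with low-dose zalfermin 3.39, 8.62 and 15.3. Low-dose semaglutide mice had 1.06, 9.57 and 19.2 CPM and high-dose semaglutide mice 2.84, 7.66 and 19.3. Medians in all 5 treated groups lay below the DIO-MASH vehicle median of 15.9, and every group overlapped the DIO-MASH vehicle mice. The combination's log2 fold change was -0.92 (95% confidence interval -1.62 to -0.21, adjusted p = 0.053). It passed with DESeq2 (0.0393), with the stricter filter (0.0487), with only the 2 groups fitted (0.0426) and in 6 fits that left out 1 mouse, such as combination replicate 2 (log2 fold change -1.12, adjusted p = 0.0188). Without combination replicate 7 or DIO-MASH vehicle replicate 1, 3 or 5 the adjusted p was 0.0321 to 0.0393, and without low-dose semaglutide replicate 6, 0.0328. The 4 single-drug groups had log2 fold changes of -0.67 to -0.51, with adjusted p of 0.184 to 0.696.

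Fcgr2b, the inhibitory Fc receptor, fell with the combination. Its CPM was 25.9, 40.04 and 41.9 (lowest, median, highest) against 39.9, 44.8 and 58.4 in DIO-MASH vehicle, with a log2 fold change of -0.30 (SE 0.106, adjusted p = 0.0375). This call was lost with only the 2 groups fitted (-0.28, adjusted p = 0.0509) and in 8 fits that left out 1 mouse, at most with DIO-MASH vehicle replicate 7 left out (log2 fold change -0.23, adjusted p = 0.122), and also without DIO-MASH vehicle replicate 2, 3, 6 or 8 or combination replicate 3, 6 or 8 (0.0514 to 0.101). Relative to the endothelial genes Fcgr2b had 0.03 with the combination (adjusted p = 0.921). B cell genes, which mark another cell type with this receptor, summed to 2 to 15.9 CPM with the combination, with 0 of 6 higher and 1 lower, and their part in the value was not tested.

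Lyve1 and Clec4g were not called in any treated group. Lyve1 had 6.32, 12.4 and 19.2 CPM with the combination and 10.5, 17.7 and 31.8 with high-dose semaglutide, against 10.9, 16.4 and 20.2 in DIO-MASH vehicle. Its log2 fold changes over the 5 treated groups ran from -0.38 (combination, 95% confidence interval -0.89 to 0.14) to 0.23 (high-dose semaglutide, interval -0.27 to 0.74). Clec4g was above the DIO-MASH vehicle mean of 31.4 CPM in each treated group, at 34.6 ± 6.72 (low-dose semaglutide), 34.7 ± 4.81 (combination), 35.4 ± 6.34 (low-dose zalfermin), 36.9 ± 4.34 (high-dose zalfermin) and 39.8 ± 9.42 CPM (high-dose semaglutide). The largest of these had a log2 fold change of 0.34 (adjusted p = 0.1), which passed without high-dose semaglutide replicate 5 (0.0418) or 7 (0.0307). Clec4g with high-dose zalfermin (0.23, adjusted p = 0.167) passed when only the 2 groups were fitted (0.0394). Stab1, Stab2, Oit3, Gpr182 and Mrc1 had log2 fold changes between -0.27 and 0.24 in the 5 treated groups, and none passed.

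**Figure D3:**
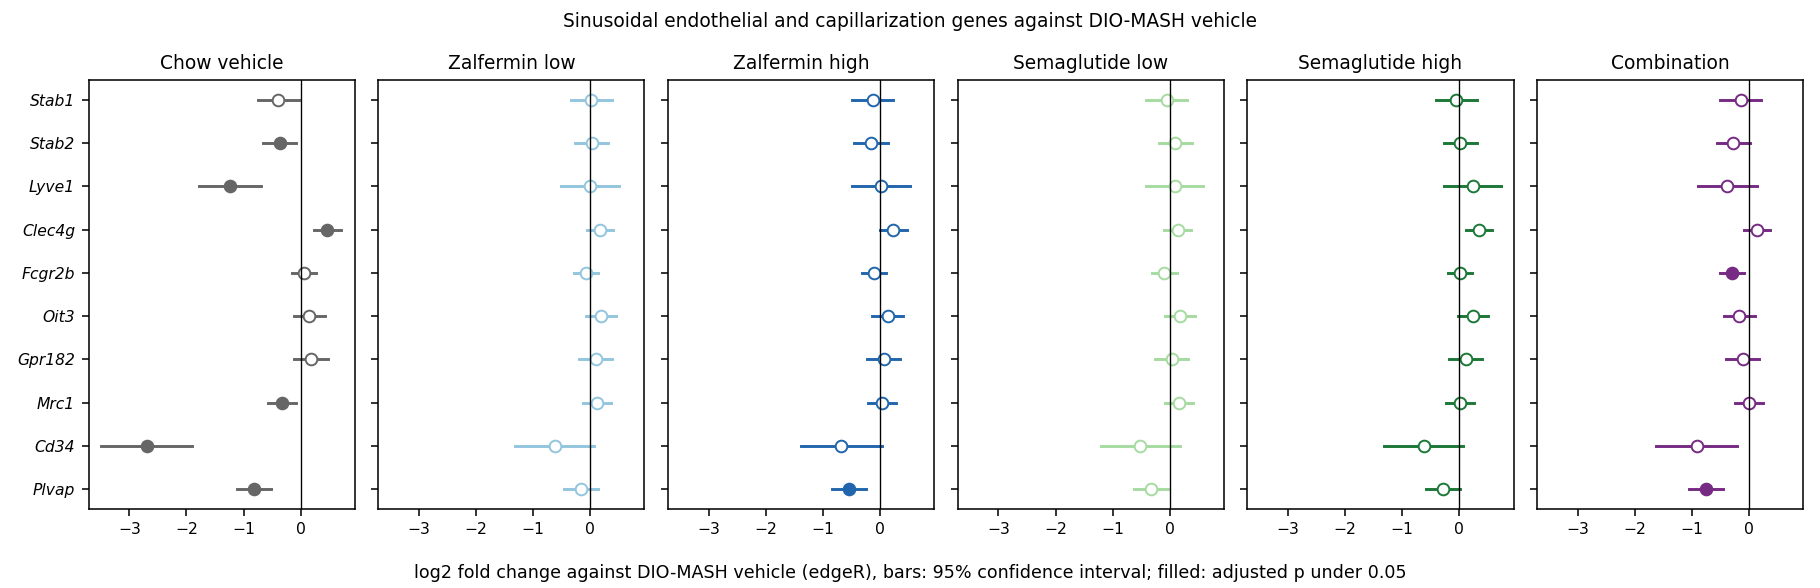
Log2 fold change of each gene against DIO-MASH vehicle for chow and the 5 treated groups (x axis, edgeR), with 95% confidence intervals as bars and filled points where the adjusted p was under 0.05. Among treated groups, Plvap is filled for high-dose zalfermin (-0.55) and the combination (-0.76), and Fcgr2b for the combination (-0.30).

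Direct comparisons between treated groups asked whether the second drug or the higher dose added to this. Adding low-dose semaglutide to low-dose zalfermin called 1 of the 10 genes, against 6.62% of all genes. That gene was Plvap, with a log2 fold change (combination minus low-dose zalfermin) of -0.60 (SE 0.149, adjusted p = 0.00857). Plvap kept this call without each of the 16 mice of both groups in turn, with a log2 fold change of -0.64 to -0.50 and an adjusted p of at most 0.0374. Adding low-dose zalfermin to low-dose semaglutide called 0 of 10, against 4.21% of all genes, with Plvap at -0.42 (95% confidence interval -0.72 to -0.13, adjusted p = 0.094), and 2 of 10 without low-dose semaglutide replicate 6. The combination against high-dose semaglutide also called 0 of 10, against 1.89% of all genes, with Plvap at -0.47 (interval -0.77 to -0.17, adjusted p = 0.0887) and Oit3 at -0.41 (adjusted p = 0.0965). That count was 1 without high-dose semaglutide replicate 3 and 2 without replicate 5. Against high-dose zalfermin it called 0 of 10, against 0.503% of all genes, with Plvap at -0.21 (interval -0.51 to 0.09). DESeq2 called 0 in these 3 comparisons, and 3, 4 and 1 genes had an unadjusted p under 0.05 in the order given. The interval of Plvap against high-dose zalfermin includes 0, which does not show that the groups had the same level.

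Between doses of 1 drug 0 of 10 genes were called, against 1.84% of all genes for zalfermin and 0% for semaglutide. Plvap had a log2 difference (high minus low dose) of -0.39 for zalfermin (interval -0.68 to -0.09, adjusted p = 0.198) and 0.04 for semaglutide (interval -0.25 to 0.34). An unadjusted p under 0.05 was found for 1 gene with zalfermin and 0 with semaglutide, and DESeq2 called 0 in both. In the low-dose interaction, the combination minus both single low doses plus DIO-MASH vehicle, 0 of 10 genes passed with edgeR or DESeq2, against 0.0142% of all genes. Oit3 had the largest value there, -0.54 (interval -0.92 to -0.17, adjusted p = 0.49), and was the 1 gene with an unadjusted p under 0.05. Plvap had -0.26 (interval -0.68 to 0.16).

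Set against chow, the treated groups show which genes still differed after dosing. These comparisons share the chow mice. Plvap with the combination (44.9 ± 7.44 CPM) had a log2 difference of 0.06 from chow (43.2 ± 8.90 CPM), with an interval of -0.24 to 0.36 and an adjusted p of 0.805. High-dose zalfermin had 0.27 (adjusted p = 0.158) and high-dose semaglutide 0.52 (adjusted p = 0.00418). Cd34 was still higher than in chow with each, at a log2 fold change of 1.78 for the combination (adjusted p = 0.000526), 2.03 for high-dose zalfermin (adjusted p = 8.06e-05) and 2.07 for high-dose semaglutide (adjusted p = 4.30e-05). The high-dose zalfermin mice did not overlap the chow mice for Cd34, nor for Mrc1 (40.87 to 57.13 against 26.46 to 40.46 CPM). Lyve1 was likewise higher, at 0.86 (adjusted p = 0.0114), 1.26 (adjusted p = 0.00023) and 1.47 (adjusted p = 1.89e-05) in the same order. Clec4g was lower than in chow with the combination (-0.33, adjusted p = 0.0259), and had -0.23 with high-dose zalfermin (adjusted p = 0.11).

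In all, the combination differed from chow in 5 of the 10 genes (3 higher, 2 lower), against 32.4% of all genes, high-dose zalfermin in 3 (3 higher), against 37.2%, and high-dose semaglutide in 5 (5 higher), against 39.9%. Besides the genes above, Mrc1 was higher with each of the 3 treatments (log2 fold changes 0.32, 0.36 and 0.34), Fcgr2b lower with the combination (-0.36, adjusted p = 0.00703) and Stab2 higher with high-dose semaglutide (0.38, adjusted p = 0.0308). Over the 16 fits that each left out 1 mouse, Mrc1 kept its call in 10, 16 and 12 in the same order. Its low value in chow replicate 8 (26.46 CPM) enters all 3 comparisons. Stab2 with high-dose semaglutide and Clec4g with the combination each kept their call in 11 of 16 such fits. The combination's count was 3 without combination replicate 2, and that of high-dose semaglutide 3 without chow replicate 8 or high-dose semaglutide replicate 6.

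Around these genes, lists fell unevenly with treatment. Of 21 vascular and basement membrane genes, 5 fell with high-dose zalfermin and 10 with the combination (0 rose in either), and 1 with high-dose semaglutide. Of all genes, 17.2%, 20.9% and 2.43% were called in these comparisons, in either direction. Nid1 had log2 fold changes of -1.60 (adjusted p = 6.81e-06) with high-dose zalfermin and -1.51 (adjusted p = 1.47e-05) with the combination, and Col4a1 -1.13 (adjusted p = 0.00025) and -1.30 (adjusted p = 3.05e-05). With the combination the endothelial transcription factors Sox7 (-0.78, adjusted p = 0.00196), Sox17, Sox18, Fli1 and Lmo2 fell, 5 of 15, and 0 rose. Of 14 VEGF and angiopoietin genes 1 rose and 2 fell, with Vegfa at 0.41 (adjusted p = 0.027) and Vegfc at -0.55 (adjusted p = 0.00974). Of 11 angiocrine factors Hgf (-0.96, adjusted p = 0.000194), Efnb2 and Thbd fell. Of 15 other sinusoidal genes 1 rose, Fcna (0.99, adjusted p = 0.00273), and 1 fell, Rapgef5 (-0.49, adjusted p = 0.0118). High-dose zalfermin shared part of this. With it 2 of the 15 transcription factors fell, as did Vegfc (-0.52, adjusted p = 0.0169) and Hgf (-0.60, adjusted p = 0.0225), and Fcna rose (0.97, adjusted p = 0.00362). Of 12 Kupffer cell genes, 1 rose with high-dose zalfermin and 3 with the combination, and which cells gave the Fcna reads was not tested. Directly between the combination and high-dose zalfermin, 0 genes of these lists were called.

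Other cell types moved in the same livers. With the combination 6 of 8 hepatocyte genes rose (summed 91700 to 149000 CPM), 7 of 12 stellate cell and fibroblast genes fell (394 to 768 CPM), as did 5 of 10 monocyte-derived macrophage genes (97.8 to 480 CPM), and 3 of 12 Kupffer cell genes rose, Clec4f, Timd4 and Marco (509 to 1170 CPM). Of 5 lymphatic genes 1 fell, Reln (log2 fold change -0.65, adjusted p = 0.0123), which is also 1 of the 12 stellate cell and fibroblast genes and had 138 ± 26.2 CPM of the lymphatic sum of 268 to 399 CPM in DIO-MASH vehicle. With high-dose zalfermin 7 of 8 hepatocyte genes rose, and 2 of 12 stellate cell and 6 of 10 macrophage genes fell. With high-dose semaglutide 2 hepatocyte genes rose, and 2 stellate cell and 4 of 6 B cell genes fell. With the low doses alone 1 gene of these lists passed, the hepatocyte gene Cps1 with low-dose zalfermin (0.98, adjusted p = 0.0117). Their part in the fall of Plvap and Fcgr2b was not tested.

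**Figure D4:**
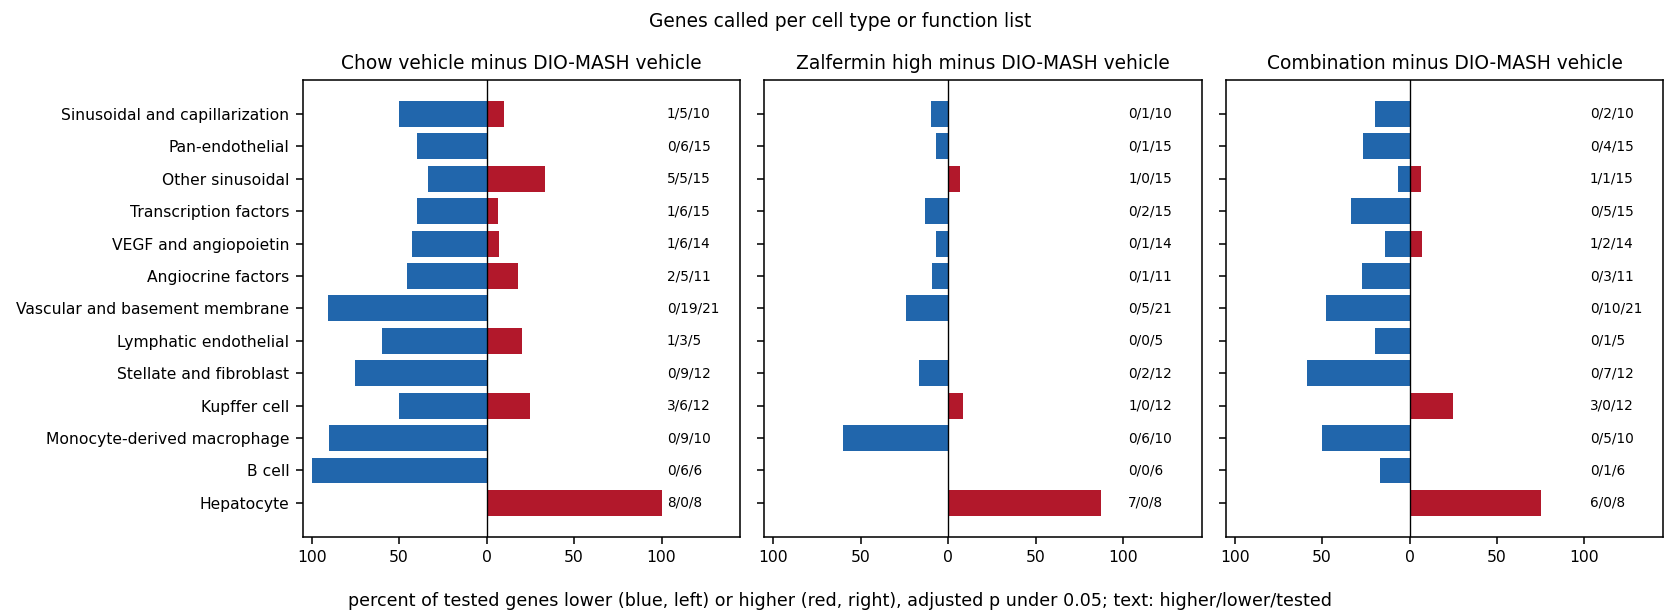
Percent of the tested genes of each list that were lower (left, blue) or higher (right, red) than in DIO-MASH vehicle at an adjusted p under 0.05, for chow, high-dose zalfermin and the combination, with counts of higher, lower and tested genes beside each bar. The vascular and basement membrane list has 19, 5 and 10 of 21 genes lower, and the sinusoidal and capillarization list 5, 1 and 2 of 10. Of all genes tested, 55.4%, 17.2% and 20.9% were called in either direction.

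Across individual livers the 10 genes did not vary as 1 block. After removing group means, Pearson's r over the 56 mice was computed for the 45 pairs, as a description, and it ran from -0.39 to 0.80 with a median of 0.41. The points share depth and composition of each library. Stab2 and Gpr182 were closest (r = 0.80, Spearman's rho 0.73), followed by Oit3 and Gpr182 (0.76) and Stab1 and Stab2 (0.735). Both capillarization markers stood apart from each other, with r = -0.10 between Cd34 and Plvap, and Clec4g ran against Cd34 (r = -0.39, rho -0.40). With every other member Cd34 had a positive r, the highest with Stab1 (0.65) and Stab2 (0.51).

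**Figure D5:**
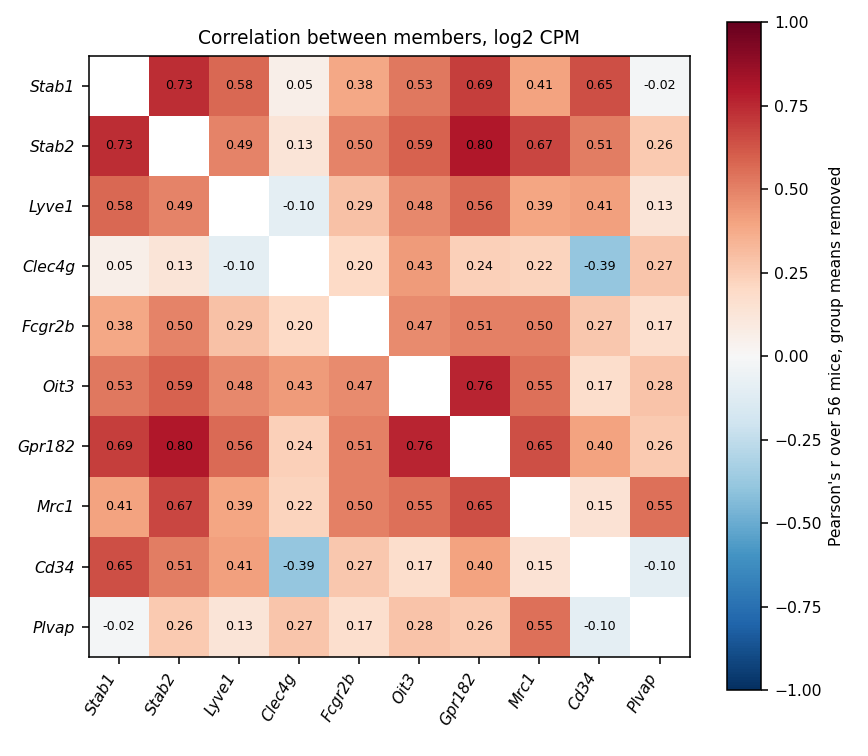
Pearson's r between the 10 genes over 56 livers, from log2 CPM with group means removed (blue negative, red positive). Stab2 and Gpr182 have the highest value, 0.80, and Clec4g and Cd34 the lowest, -0.39.

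Among 11865 genes with a mean of at least 1 CPM, the genes most like each member were taken the same way. Nearest to Stab1 (r = 0.89), Stab2 (0.81) and Gpr182 (0.79) was Eng, the endothelial coreceptor endoglin. Oit3 was nearest to Adgrf5 (0.78) and Aqp1, the endothelial water channel (0.78), and Mrc1 to Cdh5, the cadherin of endothelial junctions (0.77). Lyve1 was nearest to Tnxb (0.72) and Notch4 (0.71), and Fcgr2b to Prex2 (0.64). Clec4g was nearest to Tmprss6, a hepatocyte protease (0.72), and the third in rank was Dnase1l3, a sinusoidal gene (0.68). Cd34 was nearest to Itga8 (0.92), Col6a3 (0.90) and Bicc1 (0.90), of which Itga8 and Col6a3 are genes of matrix-producing mesenchymal cells, and no general endothelial gene was among its first 3. Plvap was nearest to the laminin gene Lama1 (0.73), Tnfrsf11b (0.68) and Postn (0.68).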

How the data were processed

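RNA was sequenced from the livers of 56 mice, and the deposited table holds raw read counts per gene, which the authors made from stranded mRNA libraries. The study's methods name the aligner STAR v2.5.2a with GRCm38_89, while the submitters' processing notes name Trim Galore 0.6.4 and Salmon 1.9.0. The counting step and its use of strand are not given in the sources used here. Groups came from the labels. The deposited design text gives the high doses for the combination and the methods the low doses, which were used. The low-dose semaglutide mouse that the study excluded is not marked in the labels, so all 56 mice were kept.

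Genes with at least 5 reads in at least 3 mice (14105) entered edgeR 4.0.16 (R 4.3.3) with TMM scaling, 1 quasi-likelihood fit of the 7 groups without covariates and Benjamini-Hochberg adjustment over all genes at 0.05. Adjusted p-values of fold changes are edgeR's unless stated. CPM used the scaled library sizes, log2 CPM a prior count of 2. Differences relative to 15 general endothelial genes were compared with exact two-sided permutation tests. Alternatives were DESeq2 1.42.0, its size factors in edgeR, no filter beyond 1 read, at least 10 reads in at least 8 mice, the label number series as covariate, fits restricted to the groups compared, and omission of each mouse. For the relative differences they were Cdh5 with Pecam1 as reference, a prior count of 0.5, DESeq2 size factors and omission of each mouse. The edgeR steps were also tested on simulated data. The smallest chi-square per degree of freedom between 2 libraries of a group was 7.93, so no library was a copy of another in its group. Pairs of libraries from different groups were not compared. Each library is 1 mouse, and precision is given as SD or SE over mice. Figures used matplotlib 3.10.9 in Python 3.11.15.

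All 10 members are named. For the other lists the plan was to name the largest rise and fall per comparison, and for each member the 3 genes most like it. The text names only part of these, and it adds list genes chosen after their values were seen. Members and lists were chosen with earlier results of these data known. Some genes, such as Reln, Sox18, Tie1 and Flt4, stand in more than 1 list. Of the listed genes, Ctgf and Figf had no row under these symbols and Ccl21a did not pass the filter.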

Additional observations from a re-analysis of the deposited data

Results flagged for a closer look

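Among 70 sets of 8 CPM values, 1 per gene and group, 7 held a mouse whose gap to its nearest neighbour exceeded Dixon's 95% critical share of the range, and chance alone marks about 1 set in 20. Cd34 in chow replicate 1 was 4.41 CPM, with the next chow mouse at 2.13. Clec4g was 26.56 CPM in DIO-MASH vehicle replicate 6 (next 30.57) and 27.24 CPM in high-dose zalfermin replicate 4 (next 35.63). Fcgr2b was 58.36 CPM in DIO-MASH vehicle replicate 7 (next 47.86), the mouse on which its call with the combination rested most, and 32.27 CPM in high-dose zalfermin replicate 1 (next 40.46). Mrc1 was 26.46 CPM in chow replicate 8 (next 35.37), without which its difference between chow and DIO-MASH vehicle was not called. Stab1 was 33.78 CPM in DIO-MASH vehicle replicate 1 (next 58.49), and without this mouse its difference from chow was called (adjusted p = 0.0188).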

How the results depend on the processing

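Counts of members called stayed within 1.5 times the reported count in 481 of 506 repeats. Many of the reported counts were 0, and by this rule 4 and 6 are taken as the same. For chow against DIO-MASH vehicle, the count of 6 ranged from 4 to 7 when 1 mouse was left out. With only the groups compared, high-dose zalfermin called 2 members against DIO-MASH vehicle, in place of 1. Leaving out 1 mouse gave 0 to 1 for high-dose semaglutide and 1 to 3 for the combination, each against DIO-MASH vehicle, 0 to 2 for the combination against low-dose or high-dose semaglutide, 3 to 7 for the combination and 3 to 5 for high-dose semaglutide against chow. Relative to endothelial genes it gave 0 to 1 for low-dose zalfermin, 0 to 3 for high-dose zalfermin and 0 to 3 for the combination. For chow on that scale, Oit3 and Plvap joined the 4 reported genes without chow replicate 2.

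Signs turned in 58 repeats, each of a fold change near 0 that was not called. With the number series as covariate Lyve1 with high-dose zalfermin was -0.0366, and with high-dose semaglutide Fcgr2b was -0.0379 and Mrc1 -0.0183. Fcgr2b with high-dose semaglutide was also -0.0015 with DESeq2 size factors, -0.00754 with the stricter filter and -0.0014 with DESeq2. Mrc1 with the combination was 0.0148 with only the groups compared. Leaving out 1 mouse gave, against DIO-MASH vehicle, -0.0216 to 0.135 for Fcgr2b in chow. With low-dose zalfermin it gave -0.0791 to 0.0744 for Stab1, -0.0282 to 0.0866 for Stab2 and -0.158 to 0.0688 for Lyve1, and with high-dose zalfermin -0.156 to 0.156 for Lyve1. With low-dose semaglutide the ranges were -0.145 to 0.0392 for Stab1 and -0.0249 to 0.106 for Gpr182, and with high-dose semaglutide -0.142 to 0.00647 for Stab1, -0.0326 to 0.0544 for Stab2, -0.027 to 0.0673 for Fcgr2b and -0.0268 to 0.0635 for Mrc1. With the combination Mrc1 ran from -0.104 to 0.056. Of the differences relative to endothelial genes, 57 turned sign in a repeat, 0 of them called before or after, with values of at most 0.13 in size. The cause of these shifts was not tested.

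Over all genes, the count for low-dose zalfermin against DIO-MASH vehicle moved from 66 to 182 with DESeq2 and to 6 without low-dose zalfermin replicate 1. Over the alternatives other than leaving out a mouse, and then over those that did, it was 49 to 182 and 6 to 138. In the same order the count for low-dose semaglutide (0) was 0 to 31 and 0 to 2, that for high-dose semaglutide (343) was 263 to 516 and 69 to 744, and the low-dose interaction (2) was 1 to 11 and 1 to 7. The combination against high-dose zalfermin (71) had 16 to 169 and 13 to 119, against low-dose semaglutide (594) 298 to 779 and 397 to 1178, and against high-dose semaglutide (266) 124 to 415 and 126 to 357. High-dose against low-dose zalfermin (260) had 223 to 380 and 109 to 494, and high-dose against low-dose semaglutide (0) had 0 and 0 to 2. No paired analysis was possible because the labels give no replicate numbers shared between groups. Depth limits Cd34 in chow most, at 9 to 43 reads a library. CPM is a share of all reads, and the hepatocyte share differed between groups.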
